A study of Bos taurus with 3 samples.

Results

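Transducin is the G protein that carries the light signal inside photoreceptors. A light-activated receptor makes its alpha subunit exchange GDP for GTP and part from the beta-gamma pair, and the free alpha subunit then relieves the inhibition of a cyclic GMP phosphodiesterase. The signal ends when the alpha subunit hydrolyses its GTP, a step speeded by a regulatory complex held at the outer segment membrane by an anchor protein, while phosducin binds the free beta-gamma pair. MicroRNAs (miRNAs) reach their target transcripts bound to Argonaute, so its footprints on these mRNAs mark where the miRNA machinery may contact them.

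The 6 genes described here are the rod and cone alpha subunits GNAT1 and GNAT2, the beta subunits GNB1 and GNB3, phosducin (PDC) and the membrane anchor RGS9BP. They were taken by name from the deposited lists of Argonaute sites in cattle retina, and all 6 were there. Together they held 15 of the 402 listed sites, in 6 of the 280 genes named there. GNB1 is the beta subunit of rod transducin but is also made in many other cells, and GNB3 serves cones and some bipolar cells, so a site in either transcript cannot be assigned to one cell type.

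The assay was Argonaute HITS-CLIP, in which ultraviolet light links RNA to bound protein and the RNA that co-purifies with Argonaute is sequenced. The material was retina of mixed-strain cattle, dissected, broken into clumps of cells and irradiated. There were 3 replicates of this single group, with no treatment and no control sample, and the sources used here do not give the animals' age. The labels do not say that the replicates came from different animals, so an SD or a p-value over them may measure technical spread. In whole retina, fewer cells of a type and less RNA per cell cannot be told apart, and mRNA levels were not measured.

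A site is a line of the authors' tables that gives a peak in each replicate, and its height is the mean number of tags, the sequenced fragments counted in those peaks. The listed sites held 6421, 5779 and 4114 tags in replicates 1, 2 and 3, and the 15 transducin sites 274, 278 and 164 of them. These sums are not the depth of the libraries. Over all 402 sites the median ratio put the scale of replicates 1, 2 and 3 at 1.22, 1.06 and 0.774. Tags, heights and tags per 100 nt are given without scaling, so their SDs include this difference between replicates. The 15 sites thus took 4.27%, 4.81% and 3.99% of the listed tags, 4.35% ± 0.419 (SD, n = 3), and made up 3.73% of the sites. Their median height was 12.7 tags, against 10.3 over all 402 sites, and 9 of the 15 lay above that overall median. Per 100 nt of peak the medians were 14.3 tags for the 15 sites and 14.8 for all. The peaks of a site differed in extent between replicates: where all 3 had to share at least 0.5 of the longest, 4 of the 15 sites stayed, 1 each in GNAT2, GNB1, PDC and RGS9BP, as did 196 of all 402. Listed sites were also counted in marker genes of cell types, from lists chosen with earlier results of these data known. The markers did not include the genes described here. Of the rod markers 8 of 11 carried a listed site, and 1 of 10 cone markers did. No site was listed for any of 8 bipolar, 6 Müller glia, 8 amacrine and horizontal, 6 pigment epithelium or 8 blood and vessel markers, and 1 of 8 ganglion cell markers had one. A marker without a listed site may still be present, so these counts do not measure which cells the tissue held.

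**Figure D1:**
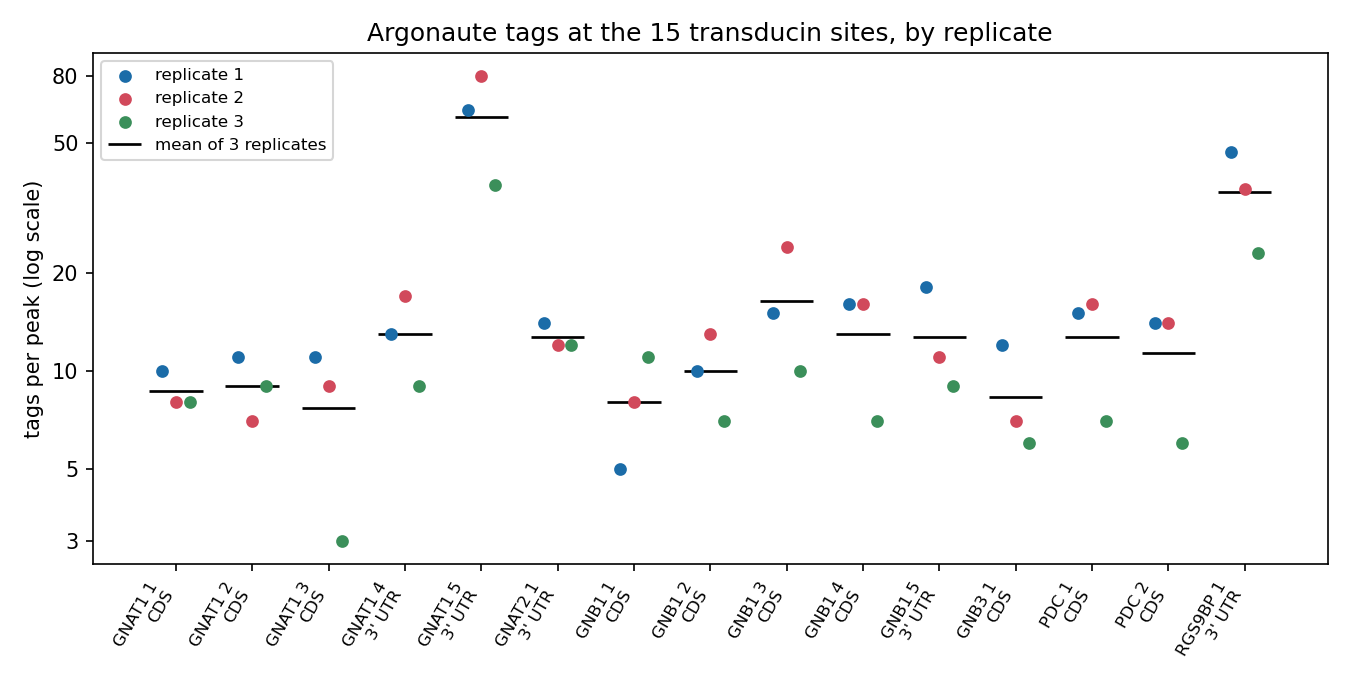
Tags (log scale) at each of the 15 sites, 1 point per replicate, with a bar at the mean of the 3. Site numbers run along the direction of transcription. GNAT1 site 5 lies between 37 and 80 tags and RGS9BP between 23 and 47, above every other site in each replicate.

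GNAT1, the alpha subunit of rod transducin, carried 5 sites on the minus strand of chromosome 22. In the order of transcription the authors placed sites 1 to 3 in coding sequence and sites 4 and 5 in the 3' UTR. Site 5 (50877454 to 50877801) had 63, 80 and 37 tags in replicates 1, 2 and 3, a mean of 60 ± 21.7 (SD, n = 3). It was rank 6 in height of the 402 sites. Even its lowest replicate held more tags than any replicate of the other 4 GNAT1 sites.

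Site 4 (50878106 to 50878224) held 13, 17 and 9 tags. Sites 1 to 3 are the coding sites. Site 1 (50880032 to 50880117) held 10, 8 and 8 tags. Site 2 (50879356 to 50879442) held 11, 7 and 9. Site 3 (50878559 to 50878704) held 11, 9 and 3, and its 3 tags in replicate 3 lay in a peak of 24 nt. The counts of sites 1 to 4 overlapped one another. Within every replicate site 4 lay above sites 1 and 3, and it equalled site 2 in replicate 3. Their order was not tested.

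The 3' UTR held 70.4%, 80.2% and 69.7% of the GNAT1 tags in the 3 replicates, 73.4% ± 5.86, and site 5 alone held 60.2% ± 5.27 (SD, n = 3). Between neighbouring summits the GNAT1 sites were spaced 700, 792, 430 and 458 nt apart along the genome, introns included. Site 5 was also a broad peak, 324, 318 and 157 nt long in the 3 replicates. The pile-up at a summit, which is the number of tags that cover it, follows from the authors' fold enrichment. At site 5 it was 14, 16 and 14 tags, so 26.7% ± 9.72 (SD, n = 3) of the tags covered the summit, against a median of 65.1% over all sites. On that reading most tags of site 5 lay to the side of its summit, whose position varied by 17 nt between replicates. The highest mean pile-up over all sites was 20 tags, below the mean of 60 tags at this site. Whether its low share goes with its height was not tested, and sites of like height were not compared.

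GNAT2, the alpha subunit of cone transducin, had a single site. It lay in the 3' UTR on the plus strand of chromosome 3 (36323019 to 36323142) and held 14, 12 and 12 tags, 12.7 ± 1.15 (SD, n = 3). The replicates were nearly level. Its 3 summits spread over 23 nt, against a median of 9 nt over all sites.

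GNB1 carried 5 sites on the plus strand of chromosome 16, of which sites 1 to 4 lay in coding sequence and site 5 in the 3' UTR. Site 3 (48152612 to 48152770) was the tallest, with 15, 24 and 10 tags, 16.3 ± 7.09 (SD, n = 3). Site 4 (48160125 to 48160252) held 16, 16 and 7 tags, and its summit fell on the same base, 48160198, in all 3 replicates. Site 5 (48163711 to 48163851), in the 3' UTR, held 18, 11 and 9 tags. These 3 sites overlapped in their counts.

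Site 2 (48147524 to 48147614) held 10, 13 and 7 tags, and site 1 (48141942 to 48142042) held 5, 8 and 11. Site 1 was the only one of the 15 with its highest count in replicate 3 alone, whereas replicate 3 was the lowest at 11 of the 15 sites, and at 57.7% of all 402 sites. Neighbouring GNB1 summits lay 5579, 5067, 7538 and 3578 nt apart on the genome. The 3' UTR held 21.3% ± 6.46 (SD, n = 3) of the GNB1 tags, against 73.4% ± 5.86 of those of GNAT1, and the values of the 3 replicates did not overlap between the genes.

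**Figure D2:**
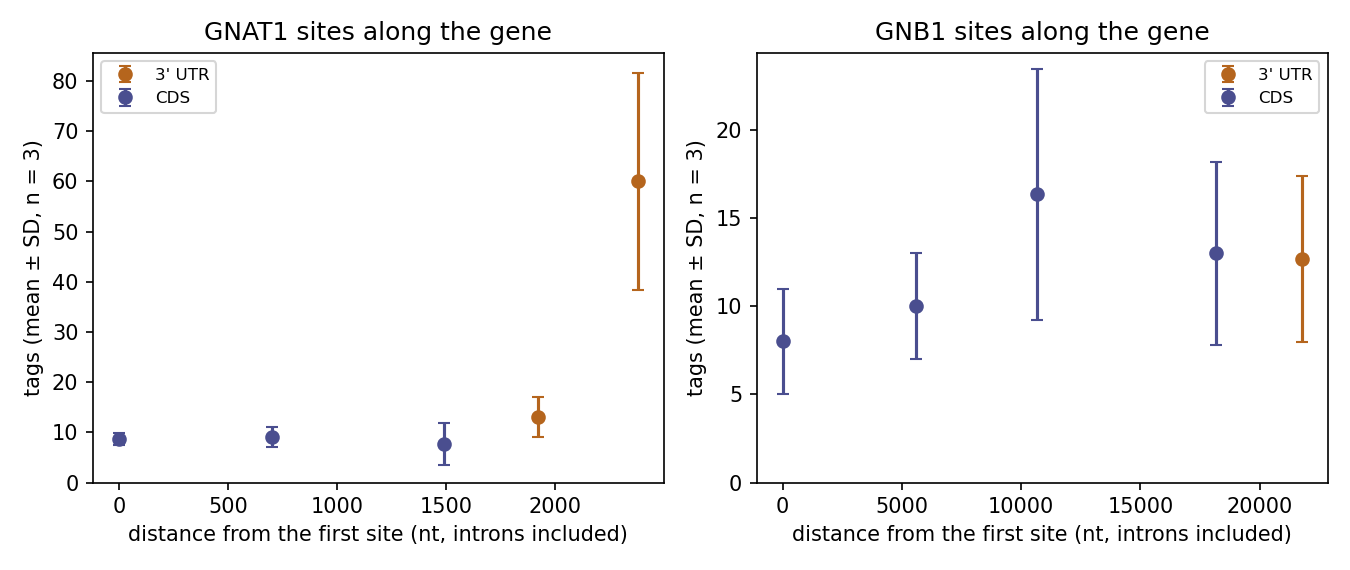
Height of the 5 GNAT1 and 5 GNB1 sites (tags, mean ± SD over 3 replicates) by distance in nt from site 1 along the direction of transcription, introns included, coloured by the authors' location class. In GNAT1 the last site stands at 60 tags and the others at 13 or fewer, while the GNB1 sites lie between 8 and 16.3.

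GNB3, the beta subunit of cone transducin, had a single coding site on the minus strand, with 12, 7 and 6 tags, 8.33 ± 3.21 (SD, n = 3). Its peaks were short, at 67, 31 and 32 nt, and in replicates 2 and 3 the summit pile-up equalled the tags. The authors placed it on chromosome 5 (10587538 to 10587604). Along that chromosome 12 of 14 named genes with a site followed the same order as in the RefSeq gene table of another assembly, and GNB3 and GAPDH did not. On chromosomes 3, 16, 18 and 22, which hold the other 5 genes, all genes compared kept that order. Whether the GNB3 coordinates reflect the authors' assembly or where the tags were placed was not tested.

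RGS9BP, which anchors the complex that speeds GTP hydrolysis by transducin, had the second-tallest site of the 15. It lay in the 3' UTR on the plus strand of chromosome 18 (42137920 to 42138051) and held 47, 36 and 23 tags, 35.3 ± 12 (SD, n = 3). Its peaks had almost the same ends in every replicate: they were 128, 131 and 132 nt long and shared 128 nt, and the summits lay within 3 nt. The summit pile-up was 17, 14 and 13 tags. Its mean, 14.7, equalled that of GNAT1 site 5, although the RGS9BP site held fewer tags. Summit pile-ups spanned a narrow range, and the highest mean over all sites was 20 tags.

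PDC, or phosducin, which binds the transducin beta-gamma pair, had 2 coding sites on the minus strand of chromosome 16, with summits 331 nt apart. Site 1 (65139620 to 65139708) held 15, 16 and 7 tags and site 2 (65139251 to 65139381) held 14, 14 and 6. Site 1 took 51.7%, 53.3% and 53.8% of the PDC tags in the 3 replicates, so the sites shared them almost evenly. Both sites were lowest in replicate 3.

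Over the 15 sites, 10 lay in coding sequence (66.7%, 95% Wilson interval 41.7 to 84.8) and 5 in the 3' UTR (33.3%, interval 15.2 to 58.3). Among the other 387 sites 18.3% were coding (interval 14.8 to 22.5) and 56.3% in the 3' UTR (interval 51.4 to 61.2). Among sites whose lowest peak score lay above the median of all sites, 41.7% of the transducin sites lay in the 3' UTR, against 54.7% of all such sites. Among sites whose peaks shared at least 0.5 of the longest, these shares were 50% of 4 sites and 53.6%. The difference was not tested, and 7 of the 10 coding sites came from 2 genes, GNAT1 and GNB1, so the sites are not independent. By gene, 4 of the 6 had a coding site, against 60 of the 280 named genes. Only 5 named genes had 3 or more coding sites: SAG with 6, GNB1 with 4, and GNAT1, MAP1B and RBP3 with 3 each.

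Counted by tags, coding sequence held 43.4%, 43.9% and 45.1% of the transducin tags in replicates 1, 2 and 3 and the 3' UTR 55.9% ± 0.875 (SD, n = 3). GNAT1 site 5 alone made up 24.8% ± 3.47, and without it the 3' UTR share was 41.2% ± 2.64. The 10 coding sites had heights from 7.67 to 16.3 tags with a median of 9.5, and the 5 sites in the 3' UTR ran from 12.7 to 60 with a median of 13. Over all 402 sites the medians were 9 tags in coding sequence and 11.3 in the 3' UTR. Per 100 nt of peak the transducin medians were 15 tags in coding sequence and 14.3 in the 3' UTR.

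**Figure D3:**
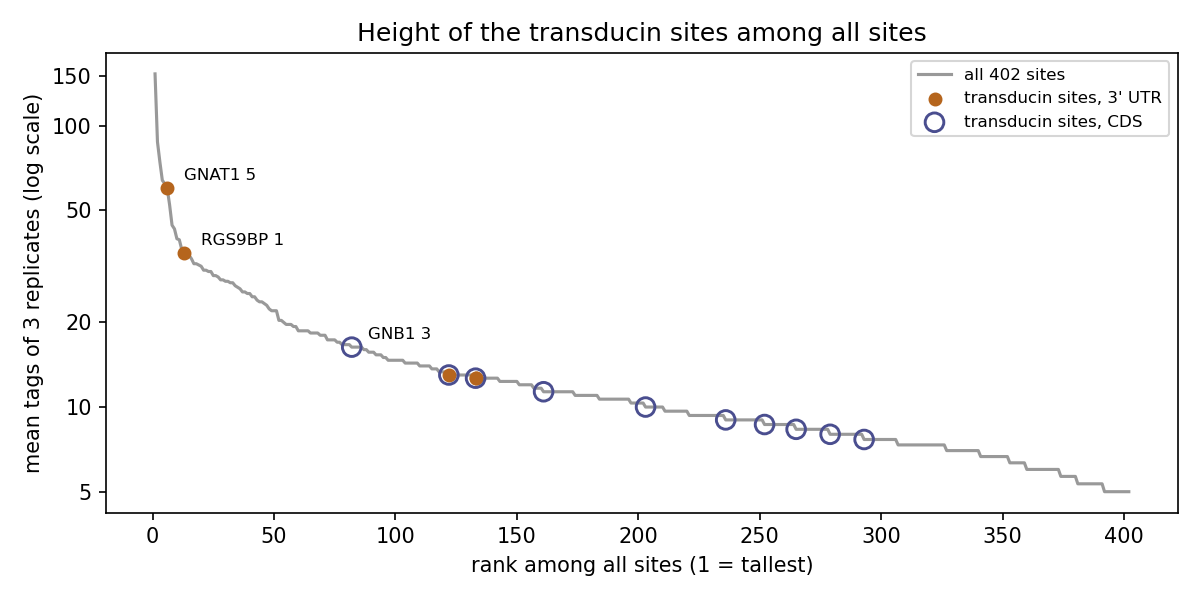
Mean tags of the 3 replicates (log scale) against rank for all 402 sites (line), with the 15 transducin sites marked by location class. GNAT1 site 5 and RGS9BP stand at ranks 6 and 13, and the others run from rank 82 to rank 293.

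To compare genes, tags were summed over each gene's sites and divided by the summed length of the peaks. RGS9BP led with 36.7, 27.5 and 17.4 tags per 100 nt in the 3 replicates, 27.2 ± 9.65 (SD, n = 3). GNB3 followed with 19.7 ± 2.49, then GNAT1 with 17.4 ± 2.43, PDC with 15.4 ± 2.38, GNB1 with 14.5 ± 2.33 and GNAT2 with 14.3 ± 1.54. The median over the 280 named genes was 14.6 tags per 100 nt. The ranges of every pair of neighbours in this order overlapped, and none of the 5 pairs passed the test (exact permutation tests, two-sided, p from 0.4 to 0.9, adjusted p from 0.833 to 0.9). With 3 against 3 the smallest p these tests can give is 0.1. Both genes of a pair were measured in the same replicates, and within replicates GNB3 lay above GNAT1 in 3 of 3, by 2.33 ± 0.436 tags per 100 nt (SD, n = 3, exact paired permutation test, two-sided, p = 0.25, the smallest that 3 pairs allow). In the other 4 pairs the gene ranked higher lay above its neighbour in 2 of 3 replicates.

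The summed tags gave another picture, since they grow with the number and length of sites. GNAT1 had 108, 121 and 66 tags over a mean of 567 nt of peak, rank 4 of the 280 genes, and GNB1 64, 72 and 44 over 411 nt, rank 11. RGS9BP had 35.3 ± 12 tags over 130 nt, PDC 24 ± 9.54 over 151 nt, GNAT2 12.7 ± 1.15 over 89.3 nt and GNB3 8.33 ± 3.21 over 43.3 nt (SD, n = 3).

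The subunits of rod and cone transducin were set side by side, a comparison chosen after their values were seen. GNAT1 lay above GNAT2 in summed tags in 3 of 3 replicates with no overlap, and so did GNB1 over GNB3 (exact permutation tests, two-sided, p = 0.1 for both, the smallest possible, adjusted p = 0.133 over 4 comparisons). Per 100 nt of peak GNAT1 also lay above GNAT2 in 3 of 3 replicates, with ranges that overlapped, at 17.4 ± 2.43 against 14.3 ± 1.54 (exact permutation test, p = 0.2, adjusted p = 0.2). GNB3 lay above GNB1 per 100 nt in 3 of 3 replicates, at 19.7 ± 2.49 against 14.5 ± 2.33 (exact permutation test, p = 0.1, adjusted p = 0.133). The GNB3 value rests on 1 site with 12, 7 and 6 tags. With the tallest site alone the order of the means turned, as GNB1 site 3 had 20.9 ± 11.6 tags per 100 nt (SD, n = 3). Both genes of a pair were measured in the same replicates. The exact paired permutation test, two-sided, gave p = 0.25 in all 4 comparisons, the smallest that 3 pairs allow. The larger sums of GNAT1 and GNB1 went with more sites and a longer covered length, on which a sum depends by construction. GNB1 is also made in other cells and GNB3 in some bipolar cells, so this pair does not set rods against cones. Retinal mRNA levels, and the numbers of rods and cones, were not measured.

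**Figure D4:**
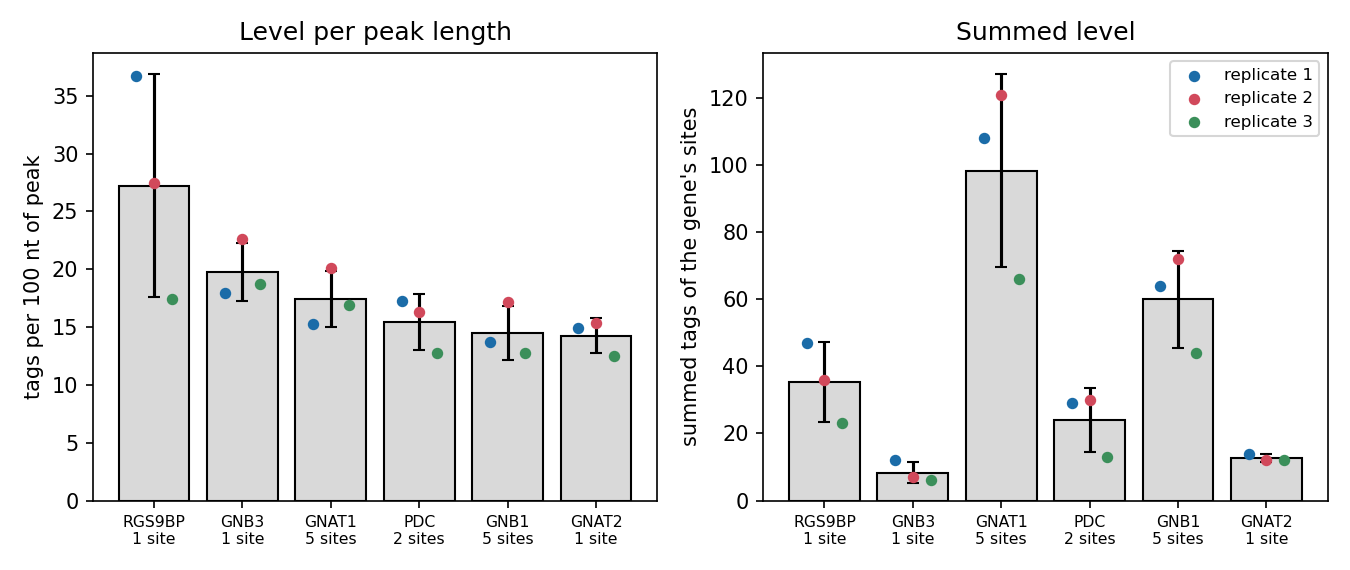
Level of each gene as tags per 100 nt of peak (left) and as the summed tags of its sites (right). Bars are means, whiskers SD and points the 3 replicates. The order of the genes differs between the panels: RGS9BP is highest per length, at 27.2, and GNAT1 highest in the sum, at 98.3.

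The tags of each site were also compared over the replicates with what counting error alone would give. By an exact multinomial test per site with Benjamini-Hochberg adjustment over all 402 sites, 0 of the 15 sites were called as varying beyond counting noise, with adjusted p from 0.218 to 0.987. The same exact test called 20 of all 402 sites, or 4.98%. A listed site has a peak in every replicate, so a site that lacked one could not enter the test. With counts this low, a site that was not called may still vary beyond counting noise. At an unadjusted p under 0.05 the exact test passed 1 of the 15, GNAT1 site 5 (p = 0.0266), against 14.7% of all sites. The expected counts were also made proportional to peak length, although that length comes from the same tags. Such a test responds to differences in called length as well as in tags. GNB1 site 3 then passed (exact test, adjusted p = 0.0176), 1 of 2 called among all 402 sites, or 0.498%. Its peak was 144 nt long with 15 tags in replicate 1 and 72 nt long with 24 tags in replicate 2, which is 10.4 and 33.3 tags per 100 nt. Its summits spread over 24 nt, the widest of the 15, where the median of the 15 was 8 nt.

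The 6 genes were also set beside the rest of their pathway. Of 10 genes of the transducin cycle the 6 described here carried a site, and GNGT1 and GNGT2, the rod and cone gamma subunits, RGS9, which speeds GTP hydrolysis, and GNB5, its partner, did not. These 6 were taken from the site lists, so their count says nothing of the cycle. Such genes may still be bound, because a peak below the authors' threshold does not appear in the lists. Of 25 other phototransduction genes 7 carried a site (28%, Wilson interval 14.3 to 47.6). The tallest was in PDE6G, the inhibitory phosphodiesterase subunit, with 34, 54 and 41 tags. PDE6A, a catalytic subunit of the enzyme that GNAT1 switches on, had 19, 17 and 8 at its tallest site, and SAG, the rod arrestin, had 14, 15 and 11.

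Beyond phototransduction few related genes were listed. Of 18 genes for assembly and trafficking of the complex 1 carried a site, UNC119, which binds the lipid tail of the transducin alpha subunit. Its coding site on chromosome 19 (19792174 to 19792274) held 9, 5 and 4 tags, 6 ± 2.65 (SD, n = 3). Of 26 other G protein subunits 1 did, the alpha subunit GNA13. Its site in the 3' UTR (chromosome 19, 63349174 to 63349295) held 7, 12 and 3 tags. None of 19 other RGS proteins had a site (Wilson upper bound 16.8%).

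The genes most like each member were sought among the other named genes by the distance between their log2 summed tags in the 3 replicates. For GNAT1 they were TNPO1, with 88, 104 and 64 tags, and PDE6G, with 79, 104 and 74, at distances of 0.37 and 0.53. For GNB1 they were XIAP, with 62, 69 and 39 tags, and SAG, with 76, 73 and 56, at distances of 0.19 and 0.43. GNAT2 matched MIR183, a miRNA gene of the photoreceptors, tag for tag at 14, 12 and 12, followed by TMTC3 at 0.26. With counts this low over 3 replicates, such matches are a description.

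For GNB3 the nearest were CACNA1F, a calcium channel subunit of photoreceptor synapses, with 14, 7 and 6 tags, and CRB1, with 12, 6 and 6, both at a distance of 0.22. For PDC they were BZW1 and MAN2A1, at 0.34 and 0.40. For RGS9BP they were MAPK8 and CRLF3, at 0.32 and 0.35. SAG shared with GNB1 the prevalence of coding sites, with 6 of its 7 sites there, while all 5 sites of TNPO1 and all 3 of XIAP lay in the 3' UTR.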

How the data were processed

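Per the submitters' processing notes, CASAVA 1.8.1 and GSNAP were used, with no roles given. The sources used here do not give the peak caller, genome build, location rules or rule for listing a site. Per the file headers, the authors' tables give, for each strand and replicate, the count of tags, the position, length and summit of a peak, a score of 10 times the −log10 of its p-value (200.02 or more throughout) and a fold enrichment over a background not described. Coordinates are the authors', counted from 1, and a site runs between the outermost ends of its 3 peaks. Sites marked as unclear, 32 in all, were treated as unnamed.

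The fold enrichment fell on whole steps within a strand and replicate (all values, within 0.1 of a step), and the number of steps was taken as the summit pile-up. In 45 of 45 transducin peaks the length exceeded the tags by 21 nt or more, and in all peaks by at least 19, so peak length may bound a count. Tags carry no molecular identifiers in the sources used here, and the exact multinomial test takes each tag as a separate count. The Wilson intervals treat sites or genes as independent and do not cover error in the tag counts. Replicates in the exact multinomial test were scaled by the median ratio over all 402 sites. Permutation tests were exact, and genes were also compared within replicates. Values were computed in Python 3.11.15 with scipy 1.17.1, pandas 2.3.3 and numpy 2.4.6 and drawn with matplotlib 3.10.9. All 6 symbols were found in the gene table of the RefSeq assembly ARS-UCD2.0, which served for names and gene order only.

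The 6 genes and all gene lists were chosen with earlier results of these data known. Named genes are the members, up to 4 genes with the tallest sites of each pathway list, and the 2 genes nearest to each member; a gene that this rule selects is not reported here. GAPDH, MAP1B and RBP3 were named after their values were seen. Alternatives covered a stricter score, peak overlap, merged sites, synonyms, each replicate left out, other scales and other height measures.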

Additional observations from a re-analysis of the deposited data

How the results depend on the processing

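With only sites whose lowest score lay above the median of all sites, 12 of the 15 sites and all 6 genes stayed, and the share of listed tags was 5.65%. Where the 3 peaks had to share at least 0.5 of the longest, 4 of the 15 sites, in 4 genes, and 196 of all 402 stayed, and the share was 2.56%. Merging sites within 1000 nt left 10, and within 100 nt 15. The median height was 6.67 as summit pile-up and ran from 10 to 14 with a replicate left out, while the share of listed tags ran from 4.13% to 4.54%. Synonyms added no site.

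The order of neighbouring genes was unstable, and the cause was not tested. With the tallest site alone the differences in tags per 100 nt turned to -2.98 for GNB3 minus GNAT1 and to -0.79 for PDC minus GNB1, and rose from 0.25 to 6.61 for GNB1 minus GNAT2. With a replicate left out, the difference between PDC and GNB1 ran from -0.41 to 1.81 and that between GNB1 and GNAT2 from -0.50 to 0.99. The other differences kept their direction, from 1.79 to 11.9 for RGS9BP over GNB3, 2.17 to 2.57 for GNB3 over GNAT1 and 0.89 to 3.97 for GNAT1 over PDC. The step scaling, chosen after the data were seen, and log2 values turned none.

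Of all sites 6 to 12 passed the exact multinomial test with a replicate left out, 2 with expected counts by peak length, 1 of them a member, and 24 with replicates scaled by the fold step; with each replicate left out in turn, and with the fold step, 0 members passed. With the stricter score, 4 other phototransduction genes, 4 rod markers and 0 cone markers, other G protein subunits or assembly genes kept a site. With the replicate as a block, added after the data were seen, the differences between neighbouring genes are the same by construction, from 0.25 to 7.46 tags per 100 nt, and the exact paired permutation p ran from 0.25 to 0.75. Counts of about 10 tags per site limit every comparison.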
